A study of Mus musculus with 2 samples.

Results

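The globin genes and 3 genes of red cell development were followed in RNA from the embryonic mouse cerebral cortex, with and without the transcription factor gene Sox11. The members are the adult globin genes Hba-a1, Hbb-b1 and Hbb-b2, the embryonic globin genes Hba-x, Hbb-y and Hbb-bh1, and the red cell genes Alas2, Slc4a1 and Klf1. Every probe set whose platform annotation names at least 1 of these 9 genes was taken, which gave 19 of 45101 probe sets. Of these, 15 name 1 gene, and 4 name several adult globin genes and are described apart. Hbb-b1 has no probe set of its own, so 8 of the 9 genes can be read singly.

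The study hybridised 2 Affymetrix arrays, 1 for a wild-type embryo, labelled Sox11(+/+), and 1 for a Sox11(-/-) littermate, both at E17.5 (late in gestation) and on a mixed C57BL/6 and 129 background. The parents were both Sox11(+/-), so the genotype is that of the whole embryo, its blood-forming organs included. With 1 embryo for each genotype no test was possible, and every difference below compares 2 RNA samples, not the genotypes. All 6 Sox11 probe sets were lower in the null library, at 16.4% to 47.8% of the wild-type signal. Of 8 cortical neuron and progenitor genes with a probe set, all were measured on the arrays (summed signal 8442 in wild type and 8072 in null), so cortical RNA was present. Both libraries also held bright muscle and epidermal genes, with Acta1 at 23182 and 23519 and Krt1 at 9172 and 3465, and the part of RNA from outside the cortex in the globin signals was not tested. The 3' over 5' ratio of a control gene grows as RNA degrades. That ratio was 1.78 in wild type and 1.16 in null for beta-actin, and 0.92 and 0.82 for Gapdh. The part of RNA quality in the differences below was not tested.

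Haemoglobin is a tetramer of alpha-type and beta-type globin chains, each holding a haem group. In the mouse, primitive red cells of the yolk sac use the embryonic chains zeta (Hba-x), epsilon-y (Hbb-y) and beta-h1 (Hbb-bh1), and definitive red cells from the fetal liver use the adult chains, so that the adult genes dominate late in gestation. Developing red cells keep globin messenger RNA after they have entered the circulation, and a tissue that is not drained of blood carries that RNA. The alpha-type genes lie together on chromosome 11 and the beta-type genes on chromosome 7. C57BL/6 mice carry the beta-globin haplotype with Hbb-bs and Hbb-bt, and 129 mice the one with Hbb-b1 and Hbb-b2. Which of these each embryo carried is not given in the labels.

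The sequences just upstream of the globin genes are shown because they carry the elements that red cell factors read, and because near-identical gene copies limit what a probe set can tell apart. Each is the 150 bases before the gene's start in RefSeq's GRCm38.p6 annotation, written 5' to 3', for an adult and an embryonic alpha-type gene, an adult and an embryonic beta-type gene, and Alas2. Capitals mark 3 motifs, searched on both strands and not overlapping each other. The CACCC box is read by Klf1 and related factors. The CCAAT box is read by the general factor NF-Y. The word GATAA is the core read by Gata1.
Hba-a1 (chr11:32283522-32283671, plus strand): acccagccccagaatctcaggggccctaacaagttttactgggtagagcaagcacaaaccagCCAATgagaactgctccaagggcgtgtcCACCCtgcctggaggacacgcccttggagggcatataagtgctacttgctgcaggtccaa
Hba-x (chr11:32276450-32276599, plus strand): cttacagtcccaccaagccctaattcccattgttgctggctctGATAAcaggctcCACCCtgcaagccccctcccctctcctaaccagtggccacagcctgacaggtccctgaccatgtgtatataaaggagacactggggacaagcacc
Hbb-bs (chr7:103827929-103828078, minus strand): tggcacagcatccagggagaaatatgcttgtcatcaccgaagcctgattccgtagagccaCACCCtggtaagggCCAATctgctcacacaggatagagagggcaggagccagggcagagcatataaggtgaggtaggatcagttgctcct
Hbb-y (chr7:103853208-103853357, minus strand): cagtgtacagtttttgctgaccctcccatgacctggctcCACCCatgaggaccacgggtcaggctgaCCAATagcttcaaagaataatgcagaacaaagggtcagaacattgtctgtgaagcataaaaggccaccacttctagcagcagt
Alas2 (chrX:150547267-150547416, plus strand): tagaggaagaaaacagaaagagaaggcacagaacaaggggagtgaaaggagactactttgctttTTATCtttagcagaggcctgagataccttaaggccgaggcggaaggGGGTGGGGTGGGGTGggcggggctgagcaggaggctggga

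In the 250 bases before the start, CACCC was present in 8 of 8 promoters of these genes, their copies Hba-a2 and Hbb-bt, and Klf1, CCAAT in 6 and GATAA in 8. Of all 32851 RefSeq promoters of that length, 52.0% held CACCC, 33.8% CCAAT and 22.6% GATAA, so matches of CACCC are common. A longer GATA motif, the letters GATA with A or T before them and A or G after them, was in 7 of the 8 and in 26.5% of all. In Hbb-bs the CACCC box lay 90 to 86 bases and the CCAAT box 76 to 72 bases before the start, and in Hbb-y they lay at 111 to 107 and at 83 to 79. Hba-a1 had CCAAT at 88 to 84 and CACCC at 60 to 56. Hba-x had no CCAAT in this window and had GATAA at 107 to 103 bases, just upstream of its CACCC box at 95 to 91. Alas2 had 3 CACCC boxes in a row on the opposite strand, 40 to 26 bases before the start, and GATAA on that strand at 86 to 82. The promoters of Hba-a1 and Hba-a2 were identical over all 247 aligned bases, and those of Hbb-bs and Hbb-bt over 178 of 243 (73.3%). A match is a description of the letters and not evidence that a factor bound there.

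The 4 probe sets that name several adult globins were among the brightest on both arrays, while all 7 embryonic globin probe sets were below the array median. A probe set counted as measured when its signal reached the array median over all 45037 non-control probe sets, 178 in wild type and 177 in null, on at least 1 array. Signals below the 25th percentile, 52.9 and 52.5, were raised to it before a difference was taken, and this value is called the floor. All 4 probe sets naming several adult globins were measured, as were 1 of 3 for single adult globins, 0 of 7 for embryonic globins and 3 of 5 for red cell genes. That 0 embryonic probe sets reached the median does not show that the messages were absent, since the brightness of a probe set also depends on its probes.

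**Figure D1:**
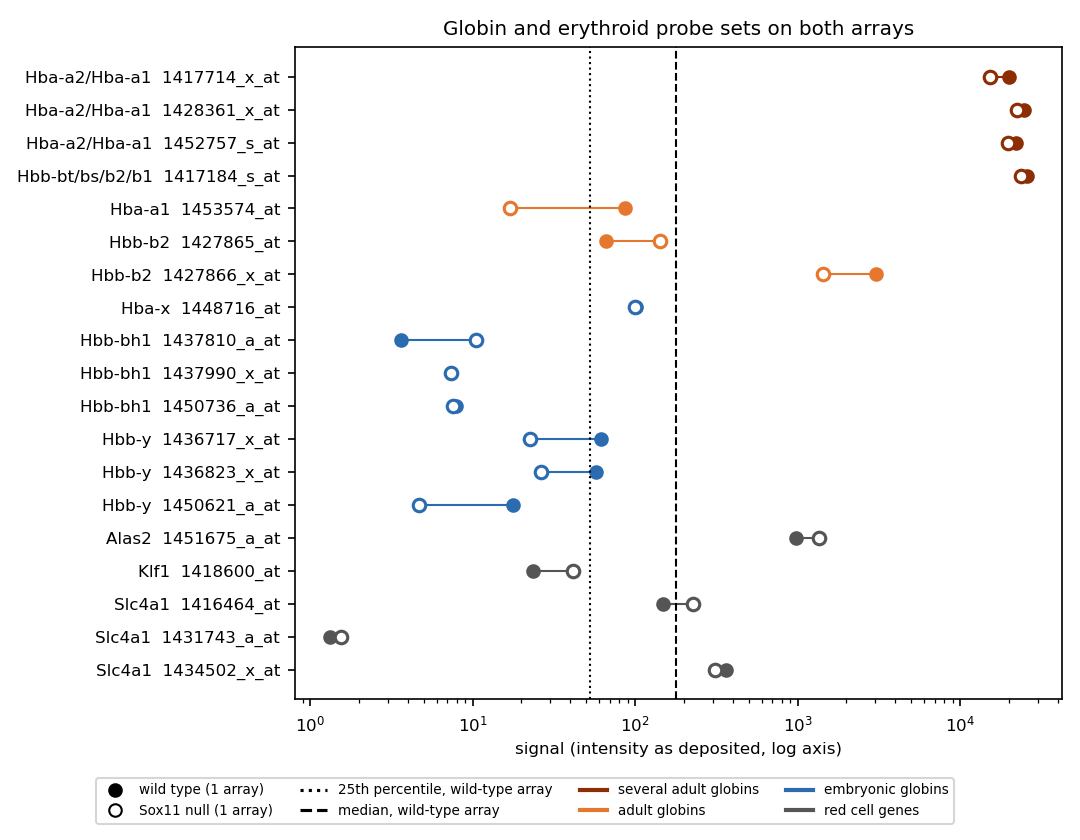
Signal of each of the 19 member probe sets (rows) on the wild-type array (filled points) and the Sox11-null array (open points), as deposited, on a log axis. The 4 probe sets naming several adult globins lie to the right of all other members on both arrays, and the 7 embryonic globin probe sets (blue) lie left of the array median (dashed line).

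Of the probe sets that name several adult globins, 1417184_s_at covers all 4 adult beta-type genes, Hbb-bt, Hbb-bs, Hbb-b2 and Hbb-b1, and so does not depend on which beta haplotype is named. It gave 25879 in wild type and 23715 in null, which ranked it 32nd and 20th of all 45037 probe sets. The null library thus kept 91.6% of the wild-type beta-globin signal, a log2 difference of -0.11. Its rank was higher in the null library although its signal was lower.

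The alpha-globin pair Hba-a1 and Hba-a2 was read by 3 probe sets, all bright on both arrays. Probe set 1428361_x_at gave 24733 and 22318 (90.2% of wild type, log2 difference -0.13). Probe set 1452757_s_at gave 22202 and 19798 (89.2%, -0.15). Probe set 1417714_x_at gave 19983 and 15356.5 (76.8%, -0.36), with ranks of 134 and 195. All 3 signals were lower in the null library, and the probe sets read the same transcripts, so they are no replicates of each other. A probe set outside the rule, 1427219_at, names Hba-a2 alone and gave 373 and 288 (-0.35).

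The small deficit of these bright adult globin signals did not hold under every scaling. The 2251 brightest non-control probe sets, with signals from 2810 upward as the mean of both arrays, had a median log2 difference of -0.068 and a central 95% from -0.47 to 0.45, and all 4 globin values lay inside that range. With quantile normalization of the arrays 3 of the 4 changed sign, to 0.089 for the beta-globin probe set and to 0.036 and 0.040 for 1428361_x_at and 1452757_s_at, and 1417714_x_at stayed lower at -0.20. With a loess trend on brightness removed the values were 0.034, 0.0083, -0.016 and -0.24 in the same order. The median over the 4 was -0.14, and 0.038 with quantile normalization. No direction for total adult globin message is therefore given. Saturation of the arrays was not tested, and the highest signals on them were 36412 and 31482. Fewer red cells and less globin RNA per red cell cannot be told apart in bulk RNA.

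**Figure D2:**
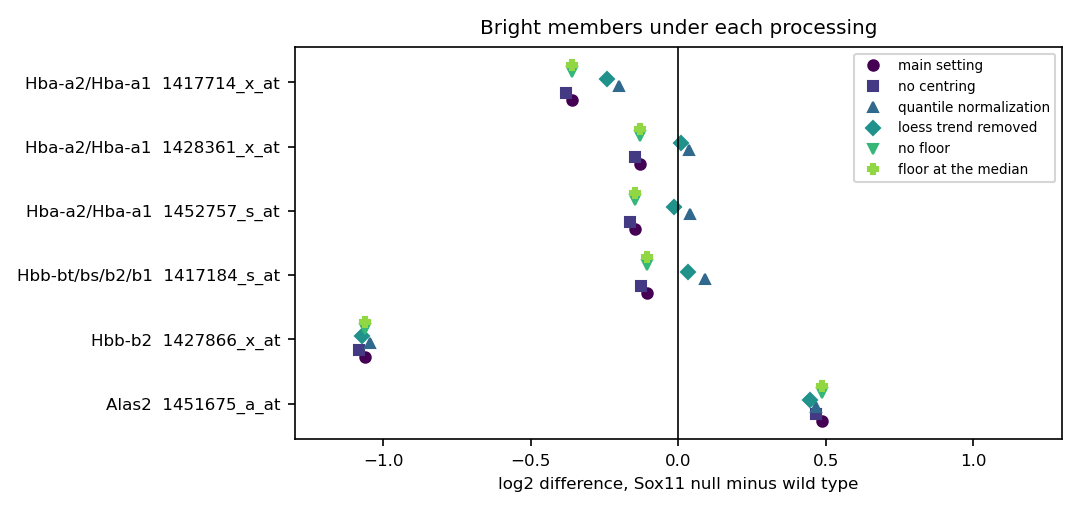
Log2 difference, Sox11 null minus wild type, of the 4 probe sets naming several adult globins, of the bright Hbb-b2 probe set and of Alas2, under the main setting and 5 other settings (marker shapes). The bright Hbb-b2 probe set stays between -1.08 and -1.04 and Alas2 between 0.45 and 0.49, while 3 of the 4 adult globin probe sets cross 0. Changing the floor cannot move signals this bright, and no centring takes 0.020 off each value.

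Probe sets for single adult globins gave a different picture from those that pool them. Hbb-b2 encodes beta-minor, the less abundant adult beta chain of the haplotype carried by 129 mice. Its bright probe set, 1427866_x_at, was at 3042 in wild type and 1437 in null, so 47.2% of wild type remained (log2 difference -1.06). Of 23737 measured probe sets 236 were at least as negative, and probe sets of like brightness had a central 95% from -0.46 to 0.54. The ending _x_at marks probes that can also bind other transcripts, and the pooled beta-globin probe set differed by -0.11. The labels do not give the beta haplotype of either embryo, so a difference in haplotype between the embryos and one in message level cannot be told apart for this probe set.

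The other Hbb-b2 probe set, 1427865_at, carries the same sequence record in the annotation and differed in the opposite direction. It was at 66.2 in wild type and 142 in null, a log2 difference of 1.12. Both signals were below the array medians, where the central 95% for like brightness ran from -1.20 to 1.40. With the floor raised to the array median this difference was 0. Hbb-b2 thus has no settled direction across its own probe sets.

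For Hba-a1, an adult alpha-chain gene, the only probe set of its own was 1453574_at. It was at 87.1 in wild type and 17.1 in null, so the null signal was below the floor and the gene was at least 1.64-fold lower by this probe set (log2 difference -0.71 against the floor, -2.33 without it). Neither signal reached the array median, and with the floor at the median the difference was 0. The 3 bright probe sets shared with Hba-a2 gave at most -0.36 in size.

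Among embryonic globins, Hba-x (zeta) was the only gene above the floor on both arrays, and its signals were close in both libraries. Its single probe set, 1448716_at, was at 101.9 in wild type and 99.96 in null, a log2 difference of -0.0078. Both values lay below the array medians.

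Hbb-y (epsilon-y) gave lower signals in the null library on 3 of 3 probe sets, all of them dim. Probe set 1436717_x_at was at 61.5 and 22.4, 1436823_x_at at 57.4 and 26.6, and 1450621_a_at at 17.8 and 4.70. In the first and second of these the wild-type signal was just above the floor and the null signal below it, which gives bounds of 1.16-fold and 1.08-fold lower at least. In the third both were below the floor. Without a floor the log2 differences were -1.44, -1.09 and -1.90, and probe sets of like brightness had central 95% ranges from -2.15 to 2.37 for the first and second and from -3.58 to 3.75 for the third. With the loess trend removed and the floor kept, the values of the first and second were 0.12 and 0.22. Their null signals were still below the floor, so these values set the wild-type signal against the null array's floor. They give no direction for Hbb-y.

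Hbb-bh1 (beta-h1) was below the floor on both arrays with all of its 3 probe sets. The signals were 3.63 and 10.4 for 1437810_a_at, 7.33 and 7.36 for 1437990_x_at, and 7.85 and 7.54 for 1450736_a_at. Values at the floor have no order, so no fold is given.

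Set side by side, the 7 embryonic probe sets had a median log2 difference of 0 with those below the floor on both arrays counted as 0, and the 7 adult probe sets, pooled and single together, had a median of -0.15. The difference of these medians was 0.15 and turned to -0.036 with quantile normalization. The embryonic median is 0 by construction, since 4 of the 7 were below the floor on both arrays. With no embryonic probe set above the array median, no contrast of embryonic against adult globins between the libraries is given.

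**Figure D3:**
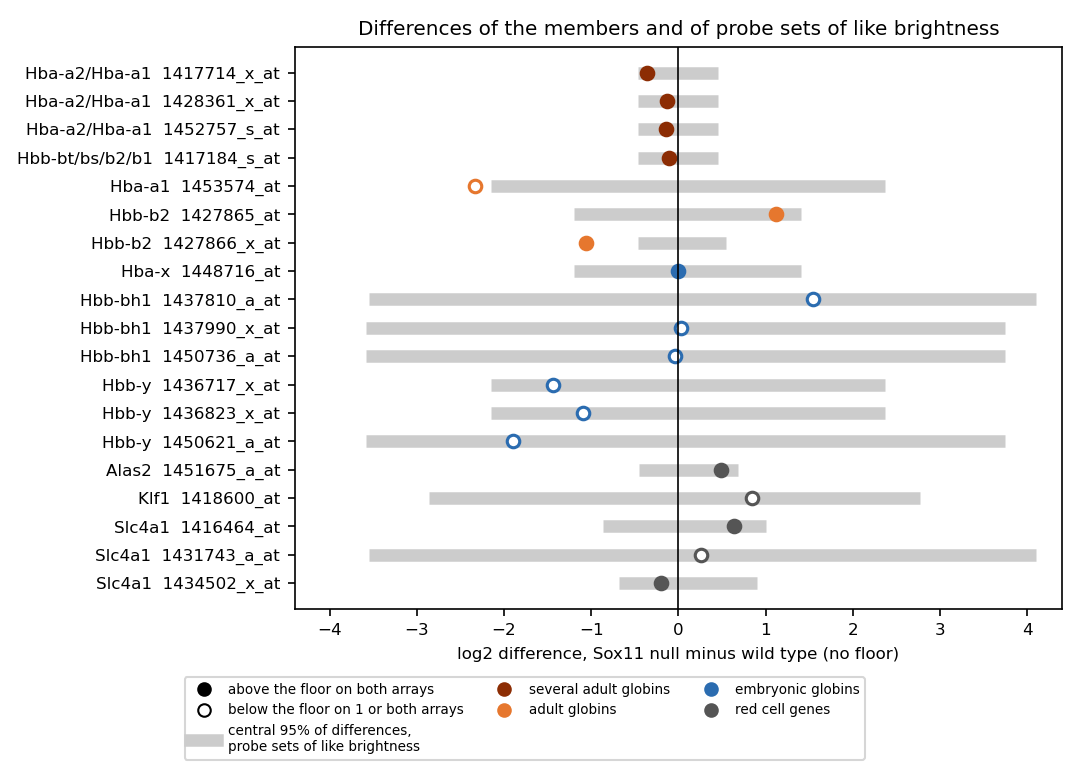
Log2 difference of each member probe set, Sox11 null minus wild type and without a floor, with grey bars for the central 95% of differences among non-control probe sets of like brightness (20 groups by mean log2 signal). Of the 19 members, 1427866_x_at (Hbb-b2) and 1453574_at (Hba-a1) lie outside their bar, and open points, below the floor on 1 or both arrays, have wide bars.

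Alas2, the erythroid enzyme for the first step of haem synthesis, was higher in the null library. It was at 979 in wild type and 1352 in null with its only probe set, 1451675_a_at, a log2 difference of 0.49 and 1.40-fold. Like brightness gave a central 95% from -0.45 to 0.68, so the value lay inside it, and it was 0.45 to 0.49 over the other settings. Alas2 lies on the X chromosome. Xist, the RNA that coats the inactive X, was at 17505 in wild type and 155 in null with its brightest probe set. All Xist probe sets were at 0.40% to 3.7% of wild type, so the samples differed as a female and a male do. Sex and genotype cannot be told apart in any difference given here. The part of sex in the Alas2 difference was not tested.

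Slc4a1 encodes band 3, the anion exchanger of the red cell membrane. Probe set 1416464_at was at 149 in wild type and 228 in null, a log2 difference of 0.64 (0.38 with the floor at the median). Probe set 1434502_x_at was at 361 and 309, a difference of -0.20, and 1431743_a_at was at 1.32 and 1.56, below the floor on both. The measured probe sets of Slc4a1 thus had opposite signs. Klf1, the transcription factor that activates adult beta-globin through CACCC boxes, was below the floor on both arrays, at 23.6 and 41.6.

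Over all 19 members, a difference of 1.5-fold or more was seen in 2 that were lower and 2 that were higher in the null library. Among the 23737 measured probe sets 4.07% were that much lower and 7.01% higher. The 19 include members that were not measured, and with no filter on low signals 2299 of 45037 probe sets were lower and 3089 higher. The lower pair is Hba-a1 and the bright Hbb-b2 probe set, and the higher pair is the dim Hbb-b2 probe set and 1416464_at of Slc4a1. At 2-fold there was 1 lower and 1 higher, both of Hbb-b2, against 1.15% and 1.93% of measured probe sets (547 and 838 of 45037 with no filter). Of the 8 members that were measured, 1 was at least 1.5-fold lower and 1 higher. The median over all 19, measured or not, was -0.0078, and that over measured probe sets was 0.018. Without a floor the counts at 1.5-fold were 5 lower and 4 higher, and with the floor at the median 1 lower and 0 higher.

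Of the genes that work beside the members in red cells, those that were measured were mostly close in both libraries. Genes too dim to be measured are outside the counts and medians below, and some of them differed by more than 1.5-fold. Ermap (-0.89), Trim10 (-0.89) and Kel (-0.82) were lower, and Xk (0.89) and Icam4 (0.81) higher. Kel and Icam4 were below the floor on 1 array. Each gene was taken by its brightest probe set, and among 12390 measured genes the share 1.5-fold or more below wild type was 3.24% and the share above it 3.07%, with a median of 0. In haem synthesis 12 of 14 genes had a probe set of their own and all 12 were measured, with 0 beyond 1.5-fold either way and a median of 0.00064. The brightest were Tmem14c, a mitochondrial porphyrin carrier, at 2058 and 2043, and Urod, a decarboxylase of the pathway, at 2039 and 1766. Alas1, the housekeeping form of the enzyme, differed by 0.52 with its brightest probe set and by -0.76 with the other measured probe set. Cpox, another gene of the list, differed by 0.075 with its brightest and by -1.07 with its other measured probe set. Ferrochelatase (Fech), which inserts the iron, differed by -0.24.

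In iron uptake and storage 9 of 11 genes were measured, with 0 beyond 1.5-fold and a median of 0.21. The transferrin receptor gene Tfrc was at 2863 and 3268 (0.21), though its other measured probe set gave 2.56 (1 gene of the list was at least 1.5-fold higher with the mean of a gene's probe sets), and the mitochondrial iron importer Slc25a37 was at 533 and 665 (0.34). The ferritin heavy chain gene Fth1, the brightest, was at 15394 and 13695 (-0.15). Aco1, the next brightest, was at 6018 and 5472 (-0.12), and its other measured probe set gave 0.51. Of the measured genes 6 were higher and 3 lower, without regard to size.

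Among genes that clear haemoglobin and haem, 5 of 7 were measured and Cd163, the macrophage receptor for haptoglobin-bound haemoglobin, was lower at 413 and 271 (-0.59, at the edge of 1.5-fold). The list had 0 genes at least 1.5-fold lower with no filter on low signals and with the filter at the 75th percentile. Hmox1, which breaks haem down, was at 196 and 288 (0.58), within 1.5-fold. The list median was 0.12, and -0.31 with no filter on low signals.

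The red cell membrane and skeleton list had 10 of 19 genes measured, 0 beyond 1.5-fold and a median of -0.025. Without the _s_at and _x_at probe sets 2 genes were at least 1.5-fold higher (median 0.081), with the mean of a gene's probe sets 1 was higher (0.078), and with no filter on low signals 2 were lower and 2 higher. Sptb, the beta-spectrin gene, differed by 0.24 with its brightest probe set and by 1.11 with the other measured one. The brightest were Add2, an adducin (1392 and 1468), and the water channel gene Aqp1 (1373 and 1396), which tissues other than blood also express. The red-cell-restricted genes Epb42 (8.23 and 14.4) and Rhag (22.2 and 14.6) were below the floor on both arrays. Of the 16 genes with a probe set of their own, only these 2 were below the floor on both arrays, and they were named after their values were seen. Rhd was measured at 191 and 160 (-0.24). Ermap (103 and 54.6) and Xk (96.6 and 177) were above the floor on both arrays. Kel was above it only in wild type (94.1 and 37.1) and Icam4 only in null (46.6 and 91.6).

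Of 15 erythroid transcription factor genes 11 were measured, and Myb, a factor of blood progenitors, was at least 1.5-fold lower (616 and 392, -0.63). Its other measured probe sets gave a mean of 0.068, and the list had 0 such genes with the mean of a gene's probe sets. Gata1, the master factor of red cells, was at 157 and 174, below the median on both arrays. Bcl11a and Sox6, which silence embryonic globins in definitive red cells and are also expressed in cortical neurons, were at 2294 and 1932 (-0.23) and at 934 and 769 (-0.26). The other measured probe sets of Bcl11a gave 0.11, 0.026, -0.20 and 1.88, with a mean of 0.45. The last of these was a dim _x_at probe set, at 59.2 and 215. The list median was -0.053.

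The list of erythroid enzymes and maturation genes had 7 of 18 genes measured, 0 beyond 1.5-fold and a median of 0.036. Prdx2, an abundant red cell peroxidase that other tissues share, was at 10684 and 8895 (-0.24), and catalase (Cat) at 4460 and 3999 (-0.14). Car1, a carbonic anhydrase of adult red cells, was below the floor on both arrays at 10.5 and 42.1. Of the globins outside the red cell clusters, myoglobin (Mb), the oxygen store of muscle, was at 559 and 478 (-0.21), and cytoglobin (Cygb) at 237 and 310 (0.41).

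**Figure D4:**
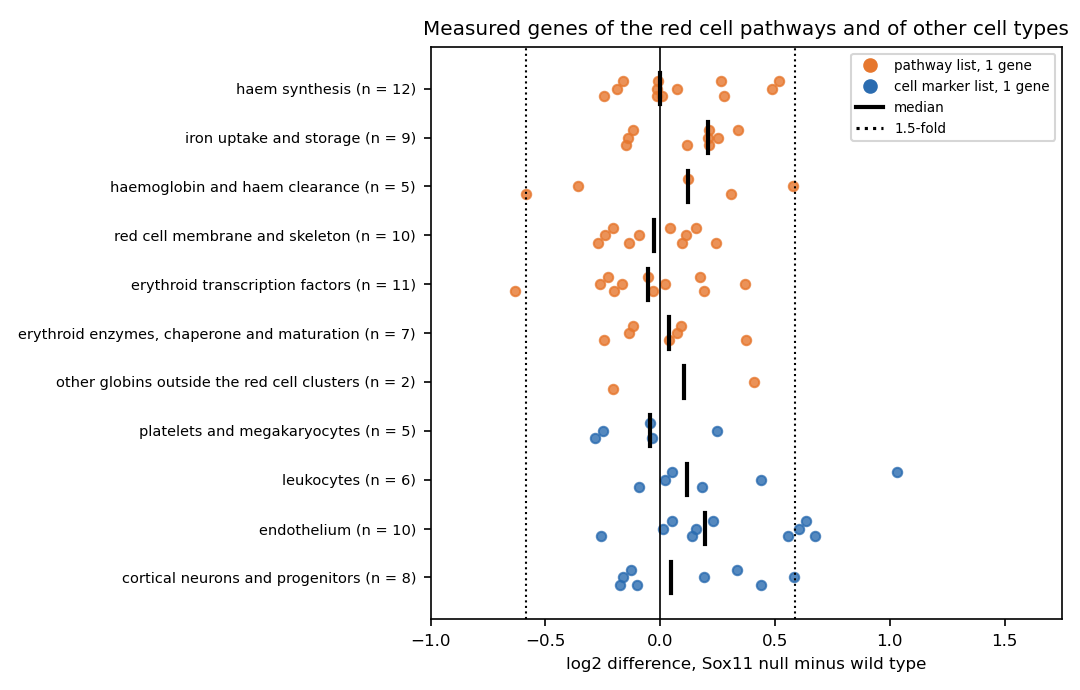
Log2 difference, Sox11 null minus wild type, of each measured gene (points) in 7 lists of red cell pathways and other globins (orange) and 4 lists of other cells (blue), with black bars for medians and dotted lines at 1.5-fold. Most points lie between the dotted lines, with Myb and Cd163 beyond the lower line and S100a8 and 3 endothelial genes beyond the upper one.

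Markers of the cells that could bring or surround blood were read beside the globins. Endothelial genes had 10 of 10 measured, a median of 0.19 and 3 at least 1.5-fold higher in the null library (Tie1 at 0.68, Cdh5 at 0.63 and Pecam1 at 0.60; 2 genes with no centring, quantile normalization, the loess trend removed or the mean of a gene's probe sets, and 1 with the filter at the 75th percentile), and their summed signal was 6210 in wild type and 7034 in null. Of the 10, 9 were higher and 1 lower in the null library, without regard to size. The lower 1 was Cldn5, a tight junction gene and the brightest of the list, at 1547 and 1274 (-0.26). Among all measured genes 3.07% were at least 1.5-fold higher. Fetal liver genes had 0 of 8 measured and 4 below the floor on both arrays, with signals up to 125 in wild type and 94.5 in null (summed 353 and 355). The albumin gene Alb gave the highest of these in wild type (80.3 in null), below the array medians on both arrays and above the floor. The part of vessel or liver content in the globin values was not tested.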

How the data were processed

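The authors deposited 1 linear signal intensity per probe set and array. Affymetrix Expression Console is named in the submitters' processing notes, and its version, settings and filters are not stated in the sources used here. The deposited intensities had a mean of 500.002 on both arrays after trimming 2% at each end. Of 45101 probe sets, 64 controls were left out, 34945 named 1 gene, 932 several and 9160 are unnamed here. Gene numbers gave current symbols for 34741 of them from a RefSeq table (GRCm38.p6), which with the promoter table gave all sequences. Hbb-b1, Hbb-b2, Hbb-bh1 and Slc4a1 had no entry in the promoter table.

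Signals were taken to log2, the null array was raised by 0.020 to centre the differences of 12390 measured genes on a median of 0, and values below each array's 25th percentile were then raised to it. Where both were below it the difference was set to 0. No detection call was used. No test was run, since each genotype had 1 array, and differences were counted at 1.5-fold and 2-fold. All 19 member probe sets are given. From each pathway list every gene beyond 1.5-fold (up to 5 each way), else the 2 brightest, is named, and other genes were chosen after their values were seen. The members and the 12 lists were chosen with earlier results of these data known. In promoters GATAA replaced a longer GATA motif after both had been counted. The computation was tested on simulated data (Python 3.11.15, pandas 2.3.3, numpy 2.4.6).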

Additional observations from a re-analysis of the deposited data

How the results depend on the processing

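Each value was recomputed with no centring, quantile normalization, a loess trend removed, no floor, the floor at the median, no filter on low signals, a filter at the 75th percentile, without the _s_at and _x_at probe sets, and, for the gene lists, with the mean over a gene's probe sets. Of these, 5 apply to single probe sets. Changing the floor cannot move signals as bright as those of the bright Hbb-b2 probe set and Alas2, and no centring only takes off 0.020. With quantile normalization their differences were -1.04 and 0.47, and with the loess trend removed -1.07 and 0.45, in that order. Of 99 recomputed class medians and counts, 71 stayed within 0.40, the pooled SD between probe sets of 1 gene, or within 1.5 times the count.

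The median of the 3 single adult globin probe sets, -0.71, was 0 with the floor at the median and 0.15 without the _s_at and _x_at types, where Hba-a1 and the dim Hbb-b2 probe set are left. That of the red cell genes, 0, was 0.49 both with no floor and with the filter at the 75th percentile. Members at least 1.5-fold lower numbered 1 with loess, with the floor at the median, with the 75th percentile filter and without the _s_at and _x_at types, and 5 with no floor. Those 1.5-fold higher numbered 4 with no floor and 0 with the floor at the median or the 75th percentile filter. At 2-fold, 5 were lower and 2 higher with no floor, 0 lower without the _s_at and _x_at types, and 0 higher with the floor at the median or the 75th percentile filter. Over all probe sets, the floor at the median gave 576 lower at 1.5-fold, and 136 lower and 201 higher at 2-fold. No filter gave 2299 lower and 3089 higher at 1.5-fold and 547 and 838 at 2-fold, and the 75th percentile filter gave 239 and 526, and 85 and 100.

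No embryonic globin passed the 75th percentile filter, so that setting gives no median for them. No paired analysis was possible because each genotype had 1 array, and leaving out an array would leave no comparison. Dim signals limit every statement on embryonic globins, Klf1 and the single-gene Hba-a1 probe set.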

Other observations

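Other blood cells gave signals beside the globins. Of 10 platelet and megakaryocyte genes 5 were measured, with 0 beyond 1.5-fold and a median of -0.046, and their summed signal was 3809 in wild type and 3660 in null. The chemokine gene Pf4, stored in platelet granules and also made by macrophages, was the brightest at 2269 and 2168 (-0.046), while Gp9, a subunit of a platelet receptor, was below the floor on both arrays (15.3 and 10.2).

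Of 13 leukocyte genes 6 were measured, with a median of 0.12 and a summed signal of 2841 and 3340. S100a8, a calcium-binding protein of neutrophils, was at least 1.5-fold higher in the null library (264 and 533, 1.03). The list had 0 such genes without the _s_at and _x_at probe sets, the type that reads S100a8, and 0 with the filter at the 75th percentile. S100a9, the partner of S100a8, differed by 0.44 (235 and 314). The lysozyme gene Lyz2 was the brightest and close in both (1040 and 1063). The T-cell gene Cd3e was below the floor on both arrays. Of all measured genes, 3.24% lay 1.5-fold or more below wild type and 3.07% above it.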
